A study of Rattus norvegicus with 12 samples.

Results

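Brain RNA from rats with a blocked middle cerebral artery that had received Buyang Huanwu Decoction (BHD) was compared with RNA from normal brain. The comparison used 8 of the 12 arrays of the series, chosen by their titles: 4 BHD arrays and 4 control arrays. The BHD samples came from rats with middle cerebral artery embolization that were given the decoction and are labelled 7 days. The control samples are labelled normal brain, with no embolization, decoction or time named. A further 4 arrays hold the untreated embolization model, also labelled 7 days, and their values are set beside those of BHD and control. The labels conflict in several places. The tissue field reads brain, while the descriptions name the hippocampus. The text on the series' design applies the embolization to all groups. The strain field reads only male. The descriptions of all BHD samples carry the number 4, while their titles number them 1 to 4, and control replicates 1 and 2 have no description. No label gives a dose, an age or the animal behind a sample, so p-values measure only the spread between these samples, which may be technical.

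Embolization of the middle cerebral artery cuts off blood to much of a hemisphere and is a standard rat model of ischaemic stroke. In such tissue neurons are lost, glia become reactive and blood-borne cells enter. BHD is a multi-herb preparation of Chinese medicine, used after stroke. The array was designed around circular RNAs, closed loops that form when a downstream splice site joins an upstream one and that are abundant in brain. Of its 60148 probes of 60 bases, 3046 are named after the circular RNA database CIRCpedia. The other 57102 have names that begin with rclstr, which the files do not explain. Labelling began from an oligo(dT) primer, and no step in the labels separates circular from linear RNA, so a CIRCpedia probe need not report a circle alone.

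The files pair no probe with a gene. Probes were therefore matched to RefSeq tables of the rat build GRCr8 that hold 419 microRNA hairpins and 33469 windows around gene starts, each from 250 bases before to 50 after. An exact match of at least 30 bases past a gene start, on the gene's strand, paired 255 probes with a gene or gene family. A stretch of at least 30 bases from a microRNA hairpin was found in 10 probes. Such a match shows that the letters occur there, not which transcript was labelled. The sequences below belong to the identified probes that differed most or whose gene is best known, and capitals mark the matched stretch. In the first the match is to Hba-a2 (chr10:15829089-15829145, minus strand), where it covers the transcript start. The second matches 4 beta-globin windows, Hbb-b1, Hbb-b2, Hbb-bs and Hbbl1, and is placed here at Hbbl1 (chr1:167650186-167650237, minus strand). The third lies over the start of Pln (chr20:33172480-33172539, plus strand). The fourth lies over the start of Kcnk4 (chr1:213555824-213555883, minus strand). The last 3 lie in the hairpins of Mir142 (chr10:73055120-73055179, plus strand), Mir22 (chr10:60805347-60805406, plus strand) and Mir24-1 (chr17:1818669-1818727, minus strand).
rclstr_55272_6_34: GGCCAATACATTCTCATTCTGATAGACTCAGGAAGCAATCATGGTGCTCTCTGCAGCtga
rclstr_47985_118_22: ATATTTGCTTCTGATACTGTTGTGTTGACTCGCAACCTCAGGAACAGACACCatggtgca
rclstr_65633_1_19: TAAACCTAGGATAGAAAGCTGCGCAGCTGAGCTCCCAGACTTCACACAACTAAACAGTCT
rclstr_17632_836_14: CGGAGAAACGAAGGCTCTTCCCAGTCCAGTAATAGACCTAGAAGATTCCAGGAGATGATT
rclstr_53789_185_16: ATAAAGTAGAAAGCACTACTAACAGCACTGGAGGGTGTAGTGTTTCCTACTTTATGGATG
rclstr_55612_113_19: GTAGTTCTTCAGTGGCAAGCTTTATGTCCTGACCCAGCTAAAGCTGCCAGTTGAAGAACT
rclstr_52572_18_24: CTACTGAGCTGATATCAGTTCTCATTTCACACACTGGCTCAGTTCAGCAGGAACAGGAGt

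The mature microRNAs cut from these hairpins are shown because the probes cover them, in whole or in part, with the seed (bases 2 to 8) in capitals. Their seeds all differ. Mature microRNAs carry no run of A for the primer used, so these probes are read here as reports of the longer primary transcripts.
rno-miR-142-5p: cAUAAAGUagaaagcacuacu
rno-miR-142-3p: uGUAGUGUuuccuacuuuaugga
rno-miR-22-5p: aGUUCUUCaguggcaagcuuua
rno-miR-22-3p: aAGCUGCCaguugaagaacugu
rno-miR-24-3p: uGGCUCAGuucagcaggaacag
rno-miR-24-1-5p: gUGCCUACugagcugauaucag

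The CIRCpedia probes with the largest rises and falls are shown because 3 of the 4 share a stretch with another probe that also differed. Capitals mark the longest stretch shared with another probe. The first pair shares 36 bases. The partner of RNO_CIRCpedia_3457_0_12 is an rclstr probe with 41 shared bases. The partner of RNO_CIRCpedia_8340_15_28 shares 31 bases and did not move with it.
RNO_CIRCpedia_2817_10_33: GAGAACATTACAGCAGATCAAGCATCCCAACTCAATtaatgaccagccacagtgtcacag
RNO_CIRCpedia_2816_2_14: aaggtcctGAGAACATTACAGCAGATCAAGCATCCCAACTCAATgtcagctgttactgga
RNO_CIRCpedia_3457_0_12: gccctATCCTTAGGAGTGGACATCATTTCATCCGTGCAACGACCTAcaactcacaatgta
rclstr_3504_2779_6: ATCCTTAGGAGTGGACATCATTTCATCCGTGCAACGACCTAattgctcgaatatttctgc
RNO_CIRCpedia_8340_15_28: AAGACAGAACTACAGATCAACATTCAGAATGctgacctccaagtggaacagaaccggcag
RNO_CIRCpedia_6416_0_22: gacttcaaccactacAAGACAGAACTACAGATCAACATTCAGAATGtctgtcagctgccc

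The remaining probes whose values are given array by array match no RefSeq window, carry no capitals and are shown so that they can be placed. The first 4 are the 2 largest rises and 2 largest falls against control among called rclstr probes that all 8 arrays measured well above background and whose groups did not overlap. The next 4 also differed between BHD and the untreated model, and the last 2 also differed between the model and control.
rclstr_33535_378_4: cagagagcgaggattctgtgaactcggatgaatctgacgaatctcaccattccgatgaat
rclstr_30370_1415_6: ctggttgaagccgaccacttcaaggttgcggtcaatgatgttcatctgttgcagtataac
rclstr_15952_2978_12: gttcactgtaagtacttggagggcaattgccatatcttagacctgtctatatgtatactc
rclstr_47519_675_6: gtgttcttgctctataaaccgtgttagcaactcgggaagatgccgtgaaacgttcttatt
rclstr_61958_285_6: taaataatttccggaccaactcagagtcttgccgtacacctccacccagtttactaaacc
rclstr_46658_381_20: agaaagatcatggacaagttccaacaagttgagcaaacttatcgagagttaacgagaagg
rclstr_45926_242_18: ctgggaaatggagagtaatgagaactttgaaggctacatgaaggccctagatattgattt
rclstr_35128_1098_23: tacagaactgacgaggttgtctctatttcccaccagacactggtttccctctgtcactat
rclstr_27469_574_10: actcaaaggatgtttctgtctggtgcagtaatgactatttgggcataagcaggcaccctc
rclstr_21070_1653_3: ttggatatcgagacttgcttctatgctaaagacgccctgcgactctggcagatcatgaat

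The arrays were alike in detection, with 73.2% to 77.3% of probes well above background. Some other measures of quality, given below, separated BHD from control arrays. Control arrays filled row 1 of slide 1, model arrays row 2 of that slide and BHD arrays row 1 of slide 2, which was scanned apart. BHD and slide therefore cannot be told apart in any difference between BHD and control. The mean local background was 19.2 to 19.5 units on the BHD arrays, 17.7 to 18.6 on the control arrays and 17.6 to 18.1 on the model arrays. BHD replicate 2 stood apart: it lay at -1.52 on the first principal component, where the other BHD arrays lay between 43.4 and 46.2 and the control arrays between -55.0 and -30.8. Of 82 marker and pathway genes listed for this tissue, 1 had a paired probe (Hba1, by a synonym), so the labelled tissue could not be checked against neuronal or hippocampal markers.

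Treated ischaemic brain differed from normal brain widely, mostly by less than 2-fold, and with more falls than rises except where arrays were centred on spike-in probes. Levels are given in log2 units above or below the 75th percentile of an array's signals. Calls were made at an adjusted p under 0.05 (limma, Benjamini-Hochberg over all tested probes). A probe was tested if all 4 arrays of any group measured it well above background. Of the 44719 such probes, 4802 were called (10.7%), 1722 higher (3.85%) and 3080 lower (6.89%) with BHD. At an unadjusted p under 0.05 the number was 12526. The median size of a called difference was 0.56, and 623 called probes reached 2-fold, 248 higher and 375 lower. The BHD and control arrays did not overlap at 4435 of the called probes and at 8335 of all tested probes. The share of calls that were lower, 64.1%, depended on the scaling. It was 53.6% under quantile normalization (2191 higher, 2527 lower) and with the deposited value table (2182 and 2524), 52.7% with normexp before quantile normalization (2624 and 2923), and 35.4% with arrays centred on the E1A spike-in probes (2678 and 1468). Single arrays moved the count as well. It was 5892 without BHD replicate 2 (2360 higher, 3532 lower, 1010 at 2-fold or more), 2554 without BHD replicate 1 and 2473 without BHD replicate 3. Leaving out a control array gave 2750 (replicate 2), 2396 (replicate 3) or 2675 (replicate 4). Without BHD replicate 4 the count of rises was 1119.

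The probe classes divided differently along the range of signal. Of the 2915 CIRCpedia probes tested, 269 were called (9.23%), 143 higher and 126 lower. Of the 41804 rclstr probes, 4533 were called (10.8%), 1579 higher and 2954 lower. With all tested probes parted by level into 4 bins of equal size, CIRCpedia calls went from 24 higher and 7 lower in the dimmest bin to 13 higher and 42 lower in the brightest. Calls among rclstr probes ran the other way, from 266 higher and 1104 lower in the dimmest to 405 higher and 441 lower in the brightest. In shares, 77.4% of dimmest and 23.6% of brightest CIRCpedia calls were higher, against 19.4% and 47.9% of rclstr calls. This contrast between the classes was not tested. Its size depended on the scaling: under quantile normalization the CIRCpedia shares were 96.4% and 26.7% and the rclstr shares 42.4% and 47.4%. With E1A centring they were 96.0% and 52.6% against 37.2% and 81.6%. Without BHD replicate 2 they were 75% and 28.1% against 20.5% and 63.6%. The count of 269 fell to 146, 140 or 153 when control replicate 2, 3 or 4 was left out. It fell to 150 or 135 when BHD replicate 1 or 3 was left out.

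**Figure D1:**
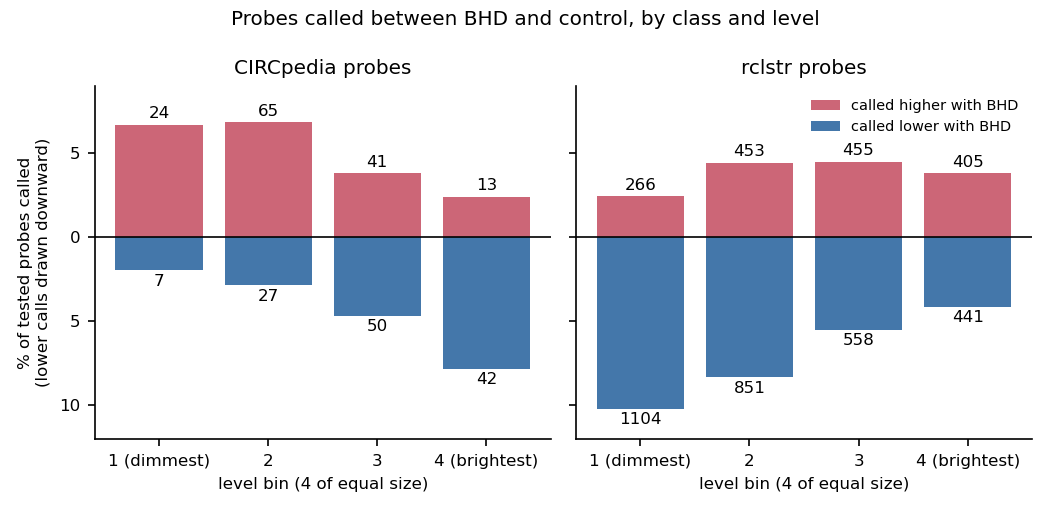
Percent of tested probes called between BHD and control (adjusted p under 0.05, limma), by probe class and by level bin (4 of equal size over all tested probes); rises are drawn upward, falls downward, and numbers on the bars count probes. CIRCpedia calls shift from mostly higher (24 and 7) to mostly lower (13 and 42) as level rises, while rclstr calls are mostly lower in the dimmest bin (266 and 1104).

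The dimmest bin gave 1401 calls, of which 366 reached 2-fold, while the brightest gave 901, of which 44 did. The order of the bins by number of calls depended on the processing. Among rclstr probes the dimmest bin gave 1370 calls and the next 1304, but 1052 and 1249 under quantile normalization and 613 and 1252 with normexp. The median level of the dimmest bin was -4.23, -4.21, -4.17 and -4.24 on control replicates 1 to 4, and -4.32, -4.27, -4.49 and -4.36 on BHD replicates 1 to 4. Every BHD array lay below every control array there. The model arrays lay at -4.26, -4.32, -4.28 and -4.16, and 3 of them were also below every control array. In the brightest bin the group means were 2.42 ± 0.04 (SD, n = 4) in control and 2.42 ± 0.06 in BHD. The local background of the model arrays was not above the range of the control arrays, while that of the BHD arrays was, and its part in the shift of the dim probes was not tested. Probes of low GC content were called higher more often: of 344 calls at 40% GC, 50.9% were higher, against 31.7% of 2882 calls above 45% GC. All probes lie between 40% and 46.7% GC.

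Detection itself changed at few probes. Among tested probes, 104 were well above background on all control arrays and on no BHD array, and 30 on all BHD arrays and on no control array. Of these, 75 (72.1%) and 20 (66.7%) were called, against 10.7% of all tested probes. Both sets were chosen by the difference in detection, so the direction of these calls was fixed in advance and their high shares are not a separate result. The other calls came mainly from the 41877 probes measured on all 8 arrays, 4369 of which were called.

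CIRCpedia differences were small: 8 of the 269 reached 2-fold. Probes were picked among called CIRCpedia probes that all 8 arrays measured well above background and whose groups did not overlap. Of these, the largest rise was at RNO_CIRCpedia_2817_10_33. Its level was -2.11, -2.21, -2.03 and -2.21 on control replicates 1 to 4 and -0.57, -0.93, -1.17 and -0.96 on BHD replicates 1 to 4. Every BHD array lay above every control array, and the rise was 2.35-fold (log2 change 1.24 ± 0.17 SE, adjusted p = 0.00294, limma). Its model arrays lay at -1.45, -1.11, -1.10 and -0.55, also above control, with a model minus control difference of 1.09 (adjusted p = 0.0514, limma). The overlapping probe RNO_CIRCpedia_2816_2_14 lay at -1.47, -1.69, -1.54 and -1.70 in control and at -0.10, -0.50, -0.73 and -0.64 with BHD, and its model arrays lay at -1.06, -0.73, -0.50 and -0.07. It rose by 1.11 ± 0.19 (adjusted p = 0.00735, limma), and since it shares 36 bases with the first it is not independent of it.

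Among CIRCpedia probes picked in the same way, the largest fall was at RNO_CIRCpedia_8340_15_28. It went from -2.59, -3.75, -3.20 and -3.68 in control to -5.21, -4.95, -5.11 and -4.78 with BHD. The log2 change was -1.71 ± 0.26 (adjusted p = 0.00388, limma). The normexp alternative corrects the uncorrected mean signal for local background and was run with an added constant of 50, which shrinks differences of dim probes. Under it the log2 change was -0.54. Model arrays lay at -4.54, -4.85, -4.07 and -4.92, a log2 change of -1.29 against control (adjusted p = 0.0934, limma). The probe with which it shares 31 bases, RNO_CIRCpedia_6416_0_22, had a log2 change of 0.29 and was not called. At RNO_CIRCpedia_3457_0_12 control levels were 0.04, 0.51, -0.03 and -0.17, model levels -0.35, -0.55, -0.52 and -0.64, and BHD levels -0.94, -0.87, -1.01 and -1.11. The 3 groups did not overlap. BHD was lower than control by a log2 change of -1.07 ± 0.13 (adjusted p = 0.00183, limma), and the rclstr probe with which it shares 41 bases, rclstr_3504_2779_6, was called at -1.01. Over all tested probes, 1176 pairs shared at least 30 bases on the same strand. At least 1 member was called in 157 of these pairs and both in 49, each time in the same direction.

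**Figure D2:**
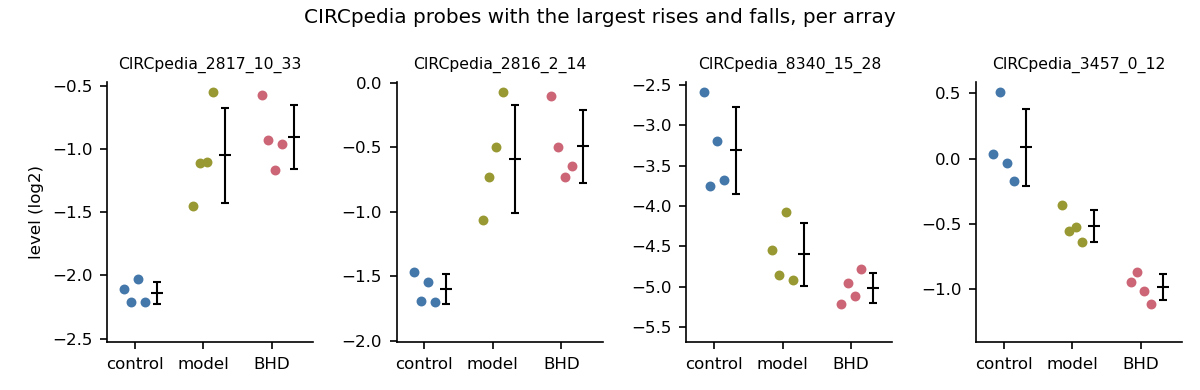
Level (log2 signal relative to the array's 75th percentile) of the CIRCpedia probes with the largest rises and falls, 1 point per array and bars for mean ± SD (n = 4). BHD arrays lie wholly above control for RNO_CIRCpedia_2817_10_33 and RNO_CIRCpedia_2816_2_14 and wholly below it for the other probes, with model arrays on the same side.

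Among probes that could be named, those matched to globin genes were lower and those in the hairpins of Mir142 and Mir22 were higher in treated ischaemic brain. Of the 255 paired probes, 139 were tested and 20 called (14.4%, against 10.7% of all tested probes), 6 higher and 14 lower. Hba-a2 encodes an alpha chain of haemoglobin, the oxygen carrier of red cells. Its probe, rclstr_55272_6_34, lay at 4.17, 3.99, 3.48 and 3.80 on control replicates 1 to 4 and at -0.80, -0.01, -1.01 and 1.33 on BHD replicates 1 to 4. All BHD arrays lay below all control arrays, 15.8-fold lower on average (log2 change -3.98 ± 0.74, adjusted p = 0.00934, limma). Model arrays lay at 1.59, -2.29, 0.13 and -1.43, a log2 change of -4.36 (adjusted p = 0.0672, limma). The paralogs Hba-a1 and Hba-a3 matched the probe nearly as well, so the 3 cannot be told apart. The beta-globin probe rclstr_47985_118_22, chosen after its values were seen, went from 2.11, 2.06, 1.13 and 1.46 in control to -1.71, -1.22, -2.39 and -0.20 with BHD. It was 8.38-fold lower (log2 change -3.07 ± 0.61, adjusted p = 0.0124, limma), and its difference between model and control was -3.66 (adjusted p = 0.0629, limma). In bulk tissue fewer cells of a type and less RNA per cell cannot be told apart. Blood content was not measured in another way, and its part in other differences was not tested.

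Mir142 gives rise to microRNAs that are typical of blood and immune cells. Its hairpin probe, rclstr_53789_185_16, was well above background on no control array (levels -6.58, -7.19, -6.73 and -6.97), and on every BHD array (-3.80, -4.48, -4.71 and -4.04). The groups were far apart, with a fitted log2 change of 2.61 ± 0.20 (adjusted p = 0.000211, limma). Since no control array measured the probe, its size is given as a bound, which was not itself tested. The level with BHD was at least 2.92-fold that of control. The bound takes for each control array either the probe's own signal or the lowest signal well above background, whichever is higher. The bound is approximate, since that limit differs between probes. Model arrays lay at -4.66, -4.93, -4.71 and -5.09, in part within the range of the BHD arrays. They were called against control (log2 change 2.02, adjusted p = 0.00724, limma), with a bound of at least 1.94-fold. BHD was not called against model (0.59 ± 0.20, adjusted p = 0.147, limma). With normexp the log2 change against control was 0.38, and the call held under each of the 23 alternatives that tested the probe.

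Mir22 is a broadly expressed microRNA gene with high levels in brain and heart. Its probe, rclstr_55612_113_19, rose from -0.34, -0.23, -0.41 and -0.25 in control to 0.33, 0.20, 0.28 and 0.33 with BHD. The groups did not overlap, and the rise had a log2 change of 0.59 ± 0.11 (adjusted p = 0.0102, limma), with a model minus control difference of 0.32 (adjusted p = 0.196, limma). The probe for Mir24-1, whose locus also carries Mir3074 on the opposite strand, went from -3.28, -3.20, -3.28 and -3.20 to -2.97, -2.64, -2.86 and -3.14, with model arrays at -3.07, -3.09, -3.01 and -3.01. Its log2 change of 0.34 ± 0.09 passed narrowly (adjusted p = 0.0426, limma) and the call was lost under 18 of 24 alternatives, among them the omission of any array but BHD replicate 4. Of the other hairpin probes, those for Mir27b, Mir429 and Mir410 had log2 changes of -0.34, -0.17 and -0.67 and were not called, nor were their model minus control differences of -0.12, -0.11 and -0.45. Those for Mir34b, Mir195, Mir10b and Mir3543 were well above background on no array, and the first pair of these lies on the strand opposite to the hairpin.

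The other named rises were smaller or dim. Pln encodes phospholamban, an inhibitor of the calcium pump of the sarcoplasmic reticulum, best known from the heart. Its probe, rclstr_65633_1_19, lay at -4.42, -4.61, -4.73 and -4.50 in control and at -2.72, -4.14, -3.12 and -2.94 with BHD. BHD replicate 2 was the lowest of its group, though above every control array, and the rise was 2.52-fold (log2 change 1.34 ± 0.28, adjusted p = 0.0145, limma), or 0.44 with normexp. The difference between model and control was 0.43 (adjusted p = 0.440, limma). Eif4a1, an RNA helicase of translation initiation, had a rise of 0.47 at its probe rclstr_54146_7_8, a call lost under 13 of 24 alternatives, and a model minus control difference of -0.21. The other rises were at 4 uncharacterised loci (LOC103691074, LOC134480734, LOC134485268 and LOC108349051), from at least 1.73-fold at the first, which was well above background on no control array, to a log2 change of 0.53 at the last. The calls at LOC103691074, LOC134485268 and LOC108349051 were lost under 2 of 23, 8 of 24 and 9 of 24 alternatives, and that at LOC134480734 under none of 24. LOC103691074 was well above background on 2 model arrays. Model minus control differences at LOC134480734, LOC134485268 and LOC108349051 were 0.21, 0.24 and 0.00. Between BHD and model, the rises at LOC134480734 (0.71) and Eif4a1 (0.68) were called, and those at Pln and the other loci were not.

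Most of the named falls were at dim probes. Cdyl, a chromodomain protein of chromatin, was measured by rclstr_24068_12_15 on 3 control arrays, 4 model arrays and no BHD array, and its control and BHD ranges overlapped. Its fitted log2 change was -1.55 (adjusted p = 0.0217, limma), with a bound of at least 1.17-fold lower with BHD. The call was lost under 6 of 22 alternatives, among them normexp (log2 change -0.14). Kcnk4, a potassium channel of the leak type found in neurons, fell by 0.65 at rclstr_17632_836_14, from -1.95, -2.23, -2.04 and -1.93 to -2.92, -2.68, -2.72 and -2.42 (adjusted p = 0.00522, limma). The groups did not overlap, and the difference between model and control was -0.14. That of Cdyl was 0.36, and both Cdyl and Kcnk4 were also called lower with BHD than in the model. The remaining falls among the 10 largest were at Mrgpre, Or9i13, Dmc1, Or10aa1, Tmem254, Prr27 and LOC102547409, with log2 changes of -1.01, -0.87, -0.81, -0.72, -0.66, -0.64 and -0.60. Their model minus control differences were 0.13, 0.10, -0.32, -0.23, -0.60, 0.23 and 0.17 in the same order, none called. Between BHD and model, Mrgpre, Or9i13, Prr27 and LOC102547409 were called, with log2 changes of -1.14, -0.97, -0.87 and -0.77. Dmc1, Or10aa1 and Tmem254 were not called there. The calls against control at Mrgpre and Tmem254 were lost under 8 of 23 and 10 of 24 alternatives, those at Dmc1 and Or10aa1 under 2 of 24 each. With normexp the log2 changes of all 7 against control were smaller, such as -0.18 at Mrgpre and -0.22 at Or9i13. Or9i13 and Or10aa1 are olfactory receptors and Dmc1 is a meiotic recombinase, and all of these probes lay below the median level of tested probes.

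**Figure D3:**
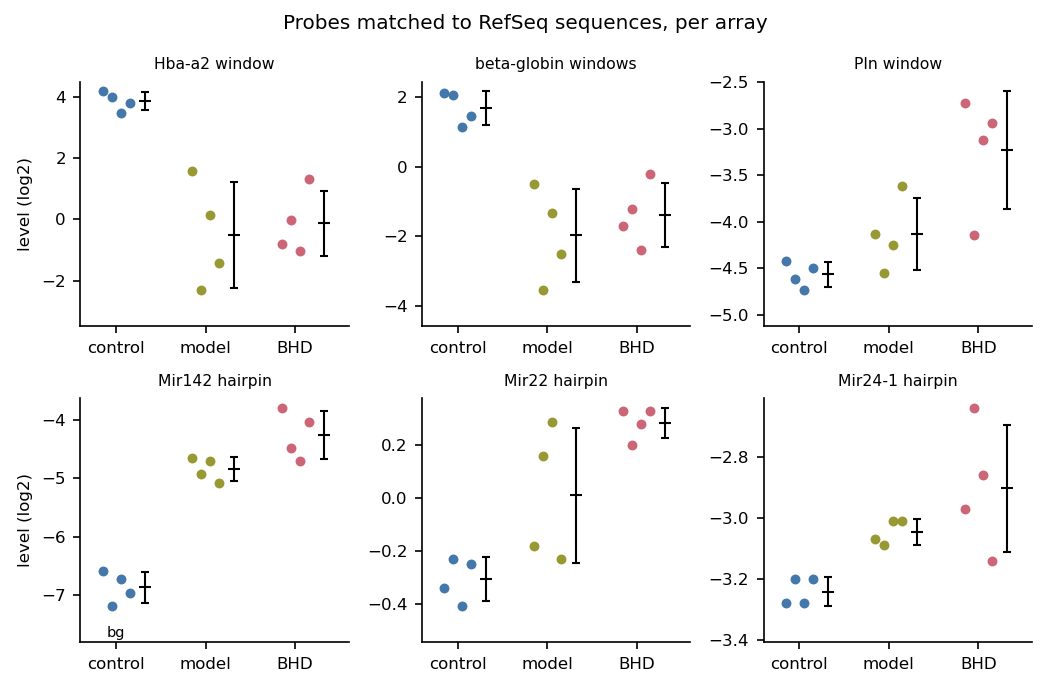
Level (log2) per array of 6 probes matched to RefSeq sequences, with mean ± SD (n = 4); "bg" marks a group in which no array was well above background. The globin probes lie lower on all BHD and model arrays than on any control array, and the Mir142 and Mir22 probes lie higher on all BHD arrays than on any control array.

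The largest rises and falls among called rclstr probes measured on all 8 arrays, in groups that did not overlap, were at probes that matched no window around a gene start. The rest of each transcript was not searched, so these probes may still lie in known genes. The probe rclstr_33535_378_4 lay at -3.78, -3.98, -4.96 and -3.02 in control, at 0.74, 1.59, 1.27 and 4.21 in the model and at 2.08, -0.71, 1.00 and 2.30 with BHD. All embolized samples lay above all controls, and with BHD the log2 change was 5.10 ± 0.81 (adjusted p = 0.00478, limma). The probe rclstr_30370_1415_6 went from 0.66, 0.55, 0.07 and 0.01 in control to 4.83, 1.61, 3.79 and 4.71 with BHD, and the model lay at 2.76, 3.45, 3.65 and 5.36. It was 10.6-fold higher than control (log2 change 3.41 ± 0.69, adjusted p = 0.0128, limma). At both probes BHD replicate 2 was the lowest of its group, and without it the changes were 5.73 and 4.12.

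The largest falls rested on control arrays that differed among themselves. The probe rclstr_47519_675_6 lay at 9.81, 9.96, 9.35 and 6.14 in control, at 7.24, 4.08, 5.94 and 4.15 in the model and at 4.76, 2.45, 4.03 and 4.74 with BHD. Control replicate 4 was lower than the other controls but above all BHD arrays, and the log2 change was -4.82 ± 0.95 (adjusted p = 0.0116, limma), or -5.71 without that replicate. The probe rclstr_15952_2978_12 lay at 3.46, 4.59, 0.97 and -2.60 in control and at -2.91, -4.20, -2.60 and -3.37 with BHD, so that control replicate 4 was at about the level of BHD replicate 3. Model arrays lay at -1.76, -3.71, -1.99 and -4.06. Its log2 change was -4.87 ± 1.26 (adjusted p = 0.0329, limma), and the call was lost under 10 of 24 alternatives (adjusted p up to 0.0771). Control replicate 4 was also the lowest control at the probes whose detection was lost with the largest bounds, rclstr_16604_2197_10 and rclstr_16548_2046_10. These were well above background on all control arrays and on no BHD array, with bounds of at least 18.7-fold and 13-fold lower. Their fitted log2 changes were -4.37 and -4.78 (adjusted p = 0.0280 and 0.0209, limma). Both were chosen by that loss of detection, so the direction was fixed in advance and the p-values are no separate support. They were well above background on 1 and 2 model arrays. Their calls were lost under 8 and 5 of 23 alternatives. In the opposite direction rclstr_33503_762_11 was well above background on no control array and on every model and BHD array, with a bound of at least 3.44-fold higher. Its fitted log2 change was 3.11 (adjusted p = 0.0484, limma), a call lost under 15 of 23 alternatives. This probe was chosen by its detection too, so its direction was likewise fixed in advance.

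**Figure D4:**
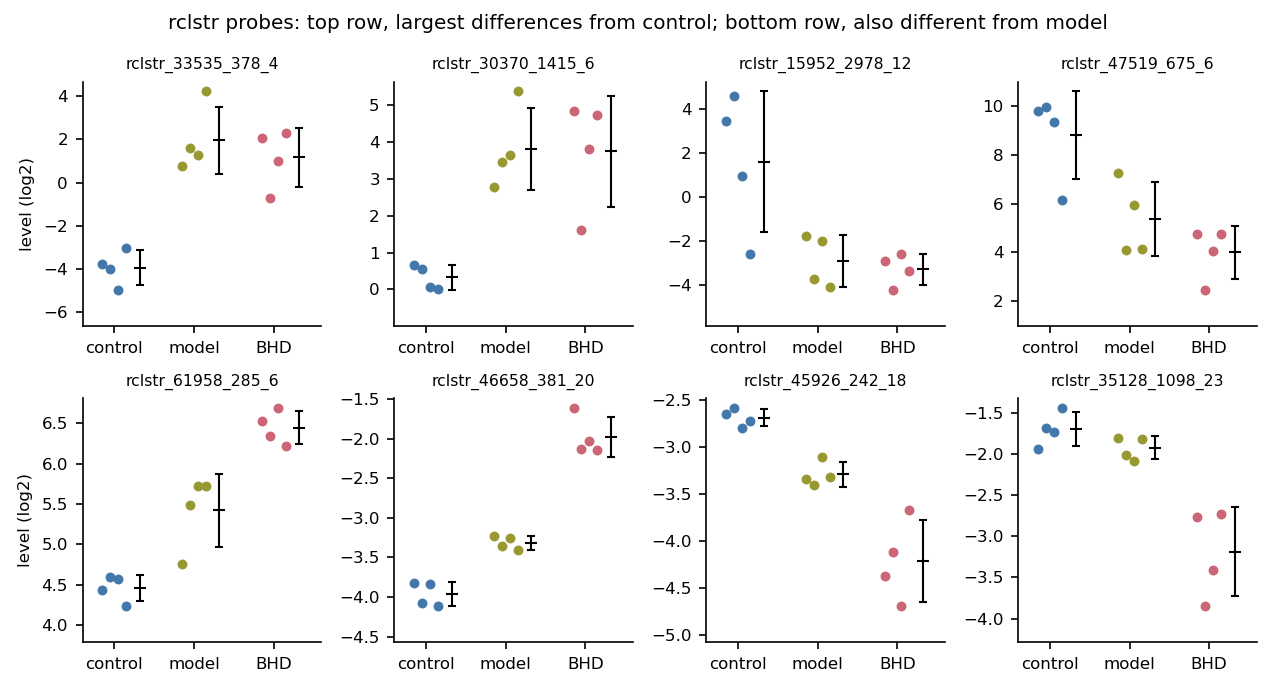
Level (log2) per array of 8 rclstr probes, with mean ± SD (n = 4). The top row holds the largest rises and falls against control among called probes measured on all 8 arrays without overlap of BHD and control. There the ranges of model and BHD arrays overlap. BHD replicate 2 is the lowest of the BHD points for rclstr_33535_378_4, rclstr_30370_1415_6, rclstr_15952_2978_12 and rclstr_47519_675_6. In the bottom row the model lies between control and BHD or near control.

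The model arrays give the values of the same probes without the decoction. The comparisons share arrays: model minus control uses the same control arrays and BHD minus model the same BHD arrays, so their values are set side by side and not correlated. Between model and control 21 probes were called (0.047%), all of them rclstr probes, 10 higher and 11 lower. Of these, 17 were among the 4802 called between BHD and control in the same direction, 8 higher and 9 lower. Between BHD and model 1428 were called (3.19%), and 1036 of these were also called between BHD and control in the same direction (72.5% of the 1428 and 21.6% of the 4802), while the 17 are 0.354% of the 4802. No probe was called in all 3 comparisons in 1 direction. The remaining 3749 were called in the same direction in neither other comparison, and 1 of them was called between BHD and model in the opposite direction. The count of 17 rested on single arrays. It became 5, 7 or 3 when control replicate 1, 2 or 3 was left out, 93, 1 or 8 for model replicate 1, 2 or 3, and 9, 44 or 4 for BHD replicate 1, 2 or 3. It was 1025 with E1A centring. The count of 1036 became 570, 679 or 678 when model replicate 1, 2 or 4 was left out, and 505 or 513 for BHD replicate 1 or 3.

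The rises and falls stood differently to the model, by an amount that depended on the scaling. Probes called higher had a median log2 difference of 0.50 between BHD and control, 0.27 between model and control and 0.22 between BHD and model. For probes called lower the medians were -0.59, -0.19 and -0.37, and over all tested probes they were -0.03, 0.00 and -0.02. CIRCpedia rises lay nearer to control in the model (0.43, 0.10 and 0.34 in that order), and 52 of the 143 were also called against the model. For rclstr rises the values were 0.51, 0.28 and 0.21, with 141 of 1579 also called against the model. CIRCpedia falls had medians of -0.40, -0.19 and -0.22, and rclstr falls -0.60, -0.19 and -0.39. Over all tested probes of a class, the model minus control median was -0.03 for CIRCpedia and 0.01 for rclstr probes. In the dimmest bin it was -0.10 and -0.05. The part of this offset in the class difference was not tested, and the class medians are given under 1 scaling only. With E1A centring, under which the median of all tested probes was 0.18 between model and control, the medians of rises were 0.52, 0.40 and 0.12 and those of falls -0.64, -0.06 and -0.55. The deposited table gave 0.51, 0.26 and 0.23 for rises and -0.52, -0.19 and -0.31 for falls. Under normexp the contrast was smaller, at 0.34, 0.18 and 0.17 against -0.33, -0.15 and -0.19. Normexp before quantile normalization gave 0.31, 0.16 and 0.16 against -0.32, -0.14 and -0.18.

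Size separated the calls further. The 51 rises of 4-fold or more had medians of 2.38 against control and 0.29 against the model, with the model itself at 1.96. The 45 falls of that size had -2.70, -0.41 and -2.40. In contrast the 330 falls of 2-fold to under 4-fold had a median of -1.18 against control, -0.37 for the model and -0.84 between BHD and model, and 133 of them were also called between BHD and model. In the dimmest bin, 381 of 1111 falls were also called against the model, and in the brightest 52 of 483. The probes were chosen and sorted by their BHD minus control value. That choice also pulls the other medians in the same direction, through the shared control and BHD arrays, so all of these medians and shared counts are a description, and how much of a model median comes from the choice was not tested.

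**Figure D5:**
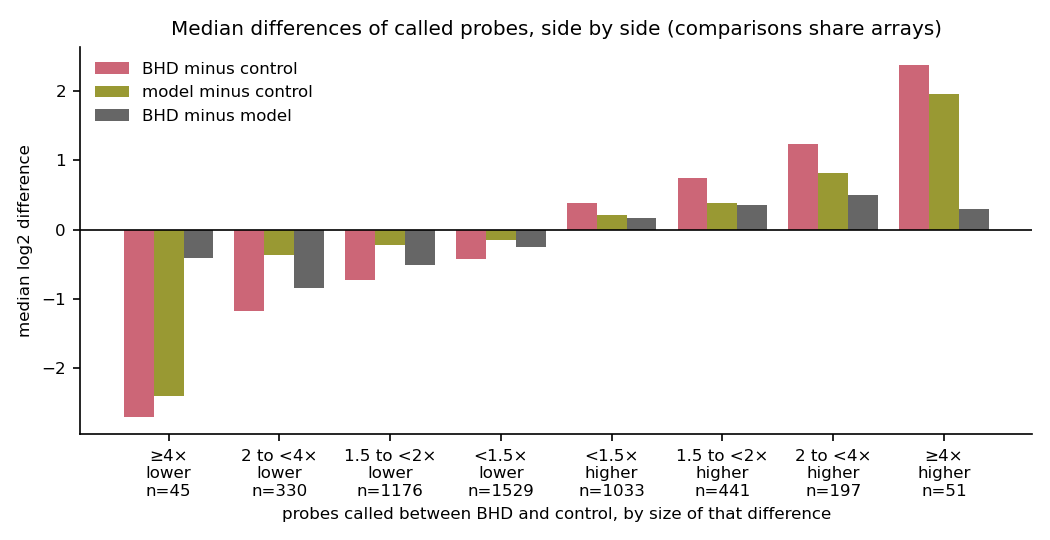
Median log2 difference of probes called between BHD and control, by size and direction of that difference, for BHD minus control, model minus control and BHD minus model; the comparisons share arrays. The model bar is near the BHD bar at 4-fold or more (1.96 and 2.38, -2.40 and -2.70) and smaller at falls of 2-fold to under 4-fold (-0.37 and -1.18).

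Among the probes called in both model and BHD against control, the largest falls were at rclstr_27469_574_10 and rclstr_21070_1653_3. The first lay at -2, -1.94, -2.57 and -2.29 in control, at -4.95, -6.49, -5.83 and -6.54 in the model and at -6.68, -5.66, -6.31 and -5.88 with BHD. Only 1 model array and 1 BHD array measured it well above background, so it was tested through the control group alone, where it is high. That filter favours a fall, and the size of its fall (-3.93 ± 0.34, adjusted p = 0.000522, limma) is poorly measured. With normexp it was -1.25. The second lay at -1.16, -2, -2.52 and -2.07 in control, at -4.40, -4.37, -4.46 and -4.11 in the model and at -6.12, -5.37, -5.04 and -4.72 with BHD. Its groups did not overlap, and BHD was below control by -3.38 ± 0.31 (adjusted p = 0.000586, limma), or -1.30 with normexp. The largest rises of this kind were rclstr_33535_378_4 and the Mir142 probe.

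Of the probes measured on all 12 arrays and called in the same direction against both control and model, the 2 largest rises and 2 largest falls had a model mean between those of control and BHD. The probe rclstr_61958_285_6 lay at 4.43, 4.59, 4.57 and 4.23 in control, at 4.76, 5.49, 5.72 and 5.72 in the model and at 6.53, 6.34, 6.69 and 6.22 with BHD. Its groups were in separate ranges, with log2 changes of 1.99 ± 0.20 against control (adjusted p = 0.000706, limma) and 1.03 against the model (adjusted p = 0.0192, limma). The probe rclstr_46658_381_20 lay at -3.82, -4.08, -3.84 and -4.11 in control, at -3.23, -3.36, -3.25 and -3.41 in the model and at -1.61, -2.13, -2.03 and -2.14 with BHD. It was again in 3 separate ranges, 1.98 ± 0.12 above control (adjusted p = 0.000146, limma), or 0.93 with normexp, and 1.33 above the model. The falls were at rclstr_45926_242_18 and rclstr_35128_1098_23. The first lay at -2.64, -2.58, -2.79 and -2.72 in control, at -3.34, -3.40, -3.10 and -3.31 in the model and at -4.37, -4.11, -4.69 and -3.67 with BHD. The second lay at -1.94, -1.68, -1.73 and -1.44 in control and at -2.77, -3.85, -3.41 and -2.73 with BHD, and its model arrays (-1.80, -2.01, -2.08 and -1.82) overlapped with control. Their log2 changes against control were -1.53 ± 0.17 and -1.49 ± 0.22 (adjusted p = 0.00141 and 0.00382, limma), or -0.58 and -0.88 with normexp. Model arrays lay on another slide and row than BHD arrays, so the decoction and the slide cannot be told apart in these differences either.

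Of 7 summaries of the arrays themselves, none passed after adjustment between BHD and control, but with 4 arrays a group this says little, since the smallest possible p hardly survives the adjustment. The mean level of 8 E1A probes, which report an added spike-in, was 4.73 ± 0.04 on BHD, 4.66 ± 0.05 on model and 4.83 ± 0.06 on control arrays, with every BHD array below every control array (exact permutation test, two-sided, p = 0.0286, the smallest that 4 against 4 can give, adjusted p = 0.100). The Gapdh 3′ minus 5′ difference, which falls or rises with RNA and labelling quality, was 2.91 ± 0.07 on BHD, 2.90 ± 0.06 on model and 3.04 ± 0.04 on control arrays, again without overlap of BHD and control and with the same p-values (exact permutation test). The part of these shifts in the called differences was not tested beyond the E1A centring given above. Median levels differed by -0.03 for CIRCpedia and -0.02 for rclstr probes (exact permutation test, adjusted p = 0.633 and 0.200). Of 28 control probes for RNA other than rat, 4 (14.3%) were called between BHD and control, all lower, against 10.7% of all tested probes. The calls were not spread evenly over the families of control probes. All 3 ERCC probes (median log2 change -0.46) and the 1 ETG05 probe (-0.48) were called, but none of the 8 E1A or 16 DCP probes. The part of this shift in the called differences was not tested. Between BHD and model 7 of the 28 were called, where 3.19% of all tested probes were. Between model and control none was called, where 0.047% of all tested probes were.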

How the data were processed

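RNA of 12 samples was hybridised to 1-colour Agilent arrays and scanned, and the submitters' processing notes name Agilent Feature Extraction 10.7.1.1. The authors deposited scanner files with processed intensity per spot (linear, background already subtracted per the file headers), uncorrected mean and local background intensity, and flags (0 or 1, unit other) per the file headers. The deposited value table holds log2 values made by the authors from the same arrays, with a normalization not given in the sources used here, and served as an alternative. The headers name a genome build but leave every probe unmapped, so positions come from RefSeq matches.

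Outlier-flagged spots were left out. No spot was saturated. The log2 processed intensities of a probe's spots were averaged, and the array's 75th percentile over non-control probes was subtracted. Probes that all 4 arrays of any group measured well above background were tested with limma 3.58.1 in R 4.3.3 on all 12 arrays, with group means and no block, and Benjamini-Hochberg adjustment. The 4 arrays of a group limit the precision. The fit was checked on simulated data. Alternatives were other scalings, background corrections, filters, thresholds and variance models, the deposited table, a fit of BHD and control arrays, a replicate block, and leaving out each array.

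Named probes were, among those called between BHD and control, the 2 largest rises and 2 largest falls of each of these sets: each class, where measured on all 8 arrays without overlap; probes detected in only 1 of the groups, by bound; probes also called between model and control; and probes also called between BHD and model. The 10 largest rises and falls with a paired gene were added, 6 rises being called, and so were all hairpin probes. The members, lists and alternatives were chosen with earlier results of these data known. The marker and pathway lists could not be described, since 1 of their 82 genes was paired.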

Additional observations from a re-analysis of the deposited data

Results flagged for a closer look

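In 141 groups of 4 arrays, namely the named probes and the 7 array summaries in each group, the highest or lowest array was compared with the nearest other array, and 9 lay farther off than Dixon's 95% limit. Chance alone gives about 1 such group in 20. Levels are log2 relative to the array's 75th percentile. Control replicate 4 was low at rclstr_47519_675_6, at 6.14 against 9.35 to 9.96 on the other controls, and had the lowest percent of rclstr probes above background, at 74.96 against 75.87 to 75.99. The probe rclstr_33503_762_11 was high on model replicate 4, at -1.41 against -5.46 to -4.78. At the LOC103691074 probe rclstr_40582_312_8, control replicate 3 was low at -7.99 against -7.17 to -7.01 and model replicate 1 was low at -7.79 against -5.53 to -5.11, all near background. The Dmc1 probe rclstr_13276_956_5 was low on BHD replicate 4, at -5.36 against -4.95 to -4.89. The Mir429 probe rclstr_32338_303_6 was low on model replicate 3, at -3.87 against -3.42 to -3.40. The Mir410 probe rclstr_55628_440_9 was low on BHD replicate 1, at -3.24 against -2.51 to -2.44. BHD replicate 1 also had the highest Pgk1 3′ minus 5′ difference of its group, at 6.594 against 6.347 to 6.383.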

How the results depend on the processing

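No named probe changed direction under any alternative that tested it. The counts below are those that moved by more than 1.5 times from the values of the report. With E1A centring 2678 probes were called higher and 1468 lower, and 1025 calls were shared with model minus control. With normexp, 124 calls reached 2-fold and 44 were shared with model minus control, and with normexp before quantile normalization 124 and 187, with 2624 called higher. Quantile normalization and the deposited table each gave 41 shared with model minus control, and the trended robust variance model 46. With no filter on dim probes 1134 were called higher, 7 were shared with model minus control and 664 with BHD minus model. With probes above background on all arrays, 393 calls reached 2-fold and 29 were shared with model minus control. At an adjusted p under 0.01 there were 1032 calls, 315 higher and 717 lower, 60 of them CIRCpedia probes and 245 at 2-fold or more, with 4 shared with model minus control and 207 with BHD minus model. Leaving out each array in turn gave 2396 to 5892 calls, 765 to 2360 higher and 1631 to 3532 lower, 135 to 314 CIRCpedia calls, 435 to 1010 at 2-fold or more, 1 to 93 shared with model minus control and 505 to 1026 shared with BHD minus model. With a replicate block 3472 probes were called and 9 were shared with model minus control. Deviations of same-numbered BHD and control arrays correlated at 0.12, -0.11, -0.16 and -0.09, within the -0.27 to 0.29 of differently numbered arrays. These values gave no sign that the numbers pair the samples, but so few correlations cannot settle it. The causes of these moves were not tested, beyond the fewer arrays, fewer probes or stricter threshold that an alternative has by construction. In the fit of BHD and control only, the counts shared with other comparisons do not exist. Signal near background limits the sizes of changes at dim probes.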
